A study of Rattus norvegicus with 9 samples.

Results

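The nuclear genes for the transfer RNAs (tRNAs) of lysine, arginine and histidine, the basic amino acids, were followed in small RNA libraries of rat striatum. Members were all entries named for a nuclear chromosome and for a Lys, Arg or His tRNA: 58 of the 1759 entries counted, and 58 of the 408 nuclear tRNA genes. They are 19 Lys-CTT genes, 1 Lys-TTT gene, 6 Arg-ACG, 3 Arg-CCG, 8 Arg-CCT, 5 Arg-TCG, 6 Arg-TCT and 10 His-GTG genes, where the letters give the anticodon. The libraries came from 3 groups of rats (Rattus norvegicus, 8 weeks old, 220 ± 20 g) dosed by gavage daily, 6 days in each week, over 8 weeks. The MMT group received methylcyclopentadienyl manganese tricarbonyl, an organic manganese fuel additive, at 4 mg/kg, which holds about 1 mg/kg of manganese, with corn oil as vehicle. The MnCl2 group, the positive control, received manganese chloride tetrahydrate at 200 mg/kg in saline at 10 ml/kg. The control group received corn oil alone at 1 ml/kg, so compound and vehicle cannot be told apart in MnCl2 against control. There were 18 rats, 9 male and 9 female, with 3 of each sex in a group, and 3 libraries in a group. Which rats, or which sex, stand behind a library is not stated in the labels, so p-values measure the spread between libraries, which may be technical.

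A tRNA carries an amino acid to the ribosome and reads the matching codons with its anticodon. Lys-CTT and Lys-TTT read the lysine codons AAG and AAA, the 5 arginine anticodons share the arginine codons between them, and His-GTG reads both histidine codons. In cells under stress, ribonucleases such as angiogenin can cut tRNAs in the anticodon loop, and shorter pieces from either end are common in small RNA libraries of brain. Mature tRNAs end in CCA, which is added after transcription, and a histidine tRNA also gains a guanosine before its first base, which its synthetase recognises. RNA of 15 to 45 nucleotides was cut from a gel, so the counts are of fragments and not of whole tRNAs. In whole tissue, fewer cells of a type and less RNA per cell cannot be told apart.

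The sequences that the results turn on are given 5′ to 3′ as deposited, with the anticodon in capitals. For lysine, the first is shared by 9 gene copies and the second, from chromosome 6, is the most abundant single copy of all 58. The third is a pair of copies on chromosome 1, and the Lys-TTT gene follows.
Lys-CTT, 9 copies: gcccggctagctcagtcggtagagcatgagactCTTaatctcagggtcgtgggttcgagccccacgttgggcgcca
Lys-CTT, chromosome 6: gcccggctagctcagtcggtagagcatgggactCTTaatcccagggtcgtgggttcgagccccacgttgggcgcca
Lys-CTT, 2 copies, chromosome 1: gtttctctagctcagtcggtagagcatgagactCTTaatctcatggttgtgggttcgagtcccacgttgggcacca
Lys-TTT, chromosome 17: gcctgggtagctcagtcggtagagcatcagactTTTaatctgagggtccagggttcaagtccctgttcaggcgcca
For arginine, the leading copy of each anticodon is shown, with both main Arg-ACG sequences.
Arg-ACG, 3 copies: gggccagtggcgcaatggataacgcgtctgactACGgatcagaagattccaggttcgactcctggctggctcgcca
Arg-ACG, 2 copies: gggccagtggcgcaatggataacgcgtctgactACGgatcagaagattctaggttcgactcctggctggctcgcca
Arg-CCG, chromosome 10: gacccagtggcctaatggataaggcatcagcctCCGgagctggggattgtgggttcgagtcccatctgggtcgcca
Arg-CCT, chromosome 4: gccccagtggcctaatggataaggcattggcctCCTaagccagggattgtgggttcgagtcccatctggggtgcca
Arg-TCG, chromosome 1: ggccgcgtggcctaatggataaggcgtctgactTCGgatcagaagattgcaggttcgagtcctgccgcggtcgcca
Arg-TCT, chromosome 2: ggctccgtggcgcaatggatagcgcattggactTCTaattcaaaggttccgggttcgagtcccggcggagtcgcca
The 10 His-GTG genes share 1 sequence.
His-GTG, 10 copies: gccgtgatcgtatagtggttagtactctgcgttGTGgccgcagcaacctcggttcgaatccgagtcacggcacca

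The 58 genes lie on 15 chromosomes (rn6, coordinates from the entry names), with 14 on chromosome 10, 11 each on chromosomes 2 and 17, and 7 on chromosome 1. A cluster at chr2:218033990-218124827 holds 5 His-GTG and 3 Lys-CTT genes, and one at chr10:12671144-12700576 holds 4 Lys-CTT, 2 Arg-CCT and 1 Arg-CCG gene. All 58 deposited sequences end in CCA, and 33 of the 58 are distinct. Introns are known in tRNA genes for Arg-TCT. For 5 of the 6 Arg-TCT genes, the coordinates span 12 to 25 bases more than the deposited sequence without its CCA, and the others of the 58 show no such gap. Lys-TTT matches the 9-copy Lys-CTT sequence at 62 of 76 positions, and the first difference comes after the first 3 bases. Further in they share longer stretches: each has 8.2% of its 16-base words in the other lysine anticodon. Most arginine anticodons also share stretches with other anticodons, of arginine or of other amino acids. The median copy has 44.3% of its 16-base words in another anticodon for Arg-CCG, 32.8% for Arg-TCG and 29.5% for Arg-CCT. It has 4.1% for Arg-TCT and 0% for Arg-ACG. Arg-CCT shares words with Lys-CTT among others, and Arg-TCT with Asn-GTT, Ile-AAT and Ile-TAT among others. The His-GTG sequence has 10.0% of its words in Asn-GTT. A short read from a shared stretch cannot be placed on one anticodon.

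The 9 libraries held 583045 (control 3) to 2012769 counts (control 1), and replicates of 1 group differed by far more than counting noise. The 58 genes took 4.66% to 5.82% of a library's counts, and 13.3% to 15.6% of its nuclear tRNA counts. Neuron miRNAs (5 of 5 found) summed to 46701 to 62293 CPM in MMT, 48473 to 61883 in MnCl2 and 46409 to 63496 in control libraries. CPM are counts scaled to library size with TMM, edgeR's scaling. Markers of other tissue stood apart in single libraries. Choroid plexus miRNAs (3 of 3) summed to 2587 CPM in MMT 3, against 301 to 1530.2 elsewhere. The next highest, MnCl2 1 (1530.2 CPM), lay close to control 2 (1383 CPM). Vascular miRNAs (4 of 4) summed to 30753 CPM in MnCl2 1, against 14600.5 to 20565 elsewhere. In the same library immune and microglia miRNAs (5 of 5) summed to 2243 CPM, against 1266 to 1824 elsewhere, and erythrocyte miRNAs (3 of 3) to 127 CPM, against 46.1 to 82.1 elsewhere. Not every miRNA followed its sum. In MnCl2 1 erythrocyte miR-486 stood at 0 CPM, and immune miR-146a-5p at 739, below 872 in control 1. Choroid plexus miR-211-5p stood at 13.5 CPM in MMT 3, against 7.78 to 27.4 elsewhere. Muscle miRNAs (3 of 3) summed to 210 CPM in MnCl2 2, against 65.3 to 163 elsewhere, although miR-206-3p was higher in MMT 2 (139 CPM) than there (110). Oligodendrocyte miRNAs (3 of 3) summed to 4736 to 5660 CPM in MMT, 4057 to 5782 in MnCl2 and 3403 to 5540 in control libraries. Liver miR-122 stood at 8.52 to 18.8 CPM in MMT, 10.5 to 15.6 in MnCl2 and 3.34 to 10.6 in control libraries. The part of these markers in the results below was not tested.

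Gene copies with the same sequence carried nearly the same counts. In each library the 10 His-GTG genes lay close together, at 671 to 703 counts in MMT 1, 331 to 406 in MnCl2 1 and 1036 to 1090 in control 1, for example. The 9 identical Lys-CTT genes had 1889 to 1959 counts in MMT 1, 1007 to 1075 in MnCl2 1 and 2787 to 2974 in control 1. Over the 8 sequences with more than 1 copy and the 9 libraries, the SD between identical copies was 0.843 times the square root of their mean (median of 72 pairs), no more than counting noise. How reads that fit several copies were placed is not given in the sources used here. Identical copies therefore give 1 measurement, not several, and the sum over an anticodon does not depend on the placement among its own copies.

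**Figure D1:**
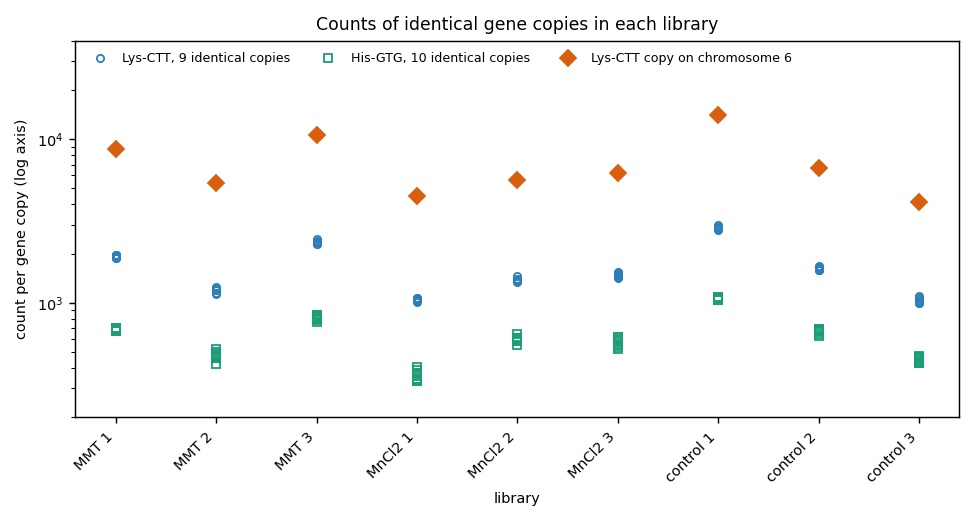
Counts of single gene copies (log axis) in each library, for the 9 identical Lys-CTT copies (circles), the 10 identical His-GTG copies (squares) and the chromosome 6 Lys-CTT copy (diamonds). Identical copies lie almost on top of each other in all 9 libraries, while the chromosome 6 copy stands 4.01 to 4.9 times above the mean of the 9 identical ones.

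Lysine tRNA with anticodon CTT was the most abundant of the 8 anticodons and, at a mean of 25227 CPM, ranked 2 of 50 nuclear tRNA anticodon classes, of which 1 holds the genes with an undetermined anticodon. Lys-TTT (6251 CPM, rank 17) and His-GTG (5968 CPM, rank 20) followed. The arginine anticodons were lower, with Arg-CCT at 4551 CPM (rank 25), Arg-CCG at 3105 (30), Arg-TCG at 2416 (35), Arg-TCT at 2189 (38) and Arg-ACG at 2141 (39). The sequences are 69 to 77 bases long, so levels are compared without scaling to length. Neighbours in this order were often within their spread: Lys-TTT had 5248 to 6327 CPM in MMT, 5476 to 6073 in MnCl2 and 5711 to 8290.4 in control libraries. His-GTG had 5749 to 5970.5 CPM in MMT, 4988 to 6062 in MnCl2 and 5911 to 6796 in control libraries. Arg-TCT and Arg-ACG likewise overlapped in MMT and control libraries.

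**Figure D2:**
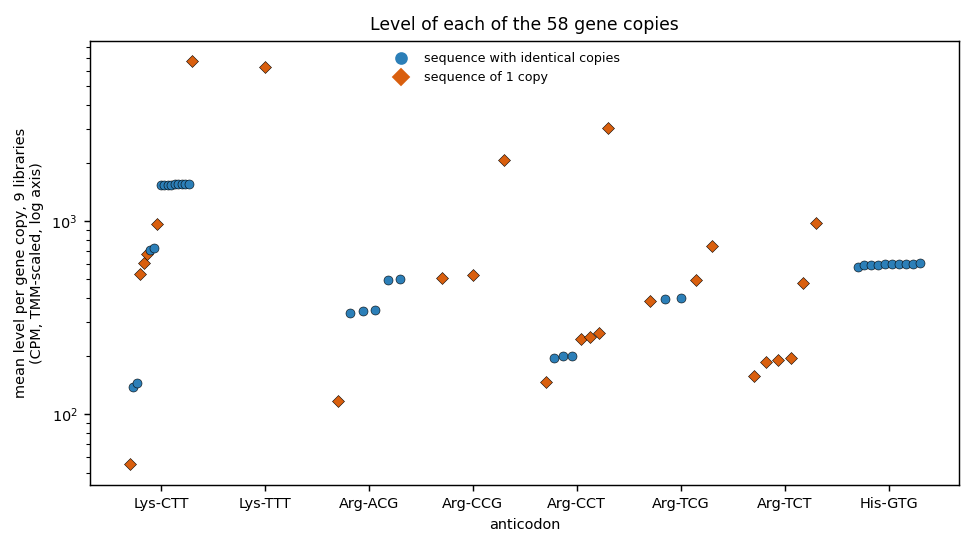
Mean level of each of the 58 gene copies over the 9 libraries (CPM, log axis), by anticodon. Circles are copies whose sequence occurs more than once and diamonds are copies with a sequence of their own; in Lys-CTT, Arg-CCG, Arg-CCT, Arg-TCG and Arg-TCT the top copy is a diamond.

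Within most anticodons, 1 sequence held much of the signal. In Lys-CTT the chromosome 6 copy (chr6.trna6230, chr6:102863393-102863465, minus strand) took 27.1% of all Lys-CTT counts, and the 9 identical copies together took 55.1%. The chromosome 6 sequence differs from theirs by A29G and T41C (positions from the 5′ end, the 9-copy base first), which face each other in the stem under the anticodon loop. The first 28 and last 35 bases are shared, so reads from within them fit all 10 copies. The chromosome 6 copy took 33.4% to 33.6% of the counts on these 10 copies in MMT, 31.3% to 32.3% in MnCl2 and 30.8% to 35.3% in control libraries. The MMT libraries lay above the MnCl2 libraries, and the control libraries spanned both. Copies of Lys-CTT ran from 55.1 CPM (chromosome 5) to 6747 CPM (chromosome 6), a 122-fold range, with a median of 1530.1 CPM.

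A pair of low Lys-CTT copies behaved unlike the other Lys-CTT copies. The chromosome 13 copy (chr13.trna2707, chr13:104189471-104189536, plus strand) is 69 bases long, 29 edits away from the 9-copy sequence, and is shown without a marked anticodon because its letters fit more than 1 place.
Lys-CTT, chromosome 13: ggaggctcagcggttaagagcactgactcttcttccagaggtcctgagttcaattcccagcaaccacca
It had 583, 690 and 405 counts in MMT, 472, 877 and 564 in MnCl2 and 371, 517 and 677 in control libraries. In CPM these are 496, 866 and 287 in MMT, 652, 857 and 592 in MnCl2 and 206, 505 and 1029 in control libraries. The deepest library, control 1, has the lowest level and the shallowest, control 3, the highest. Of its 16-base words, 9.3% occur in another class, the one with an undetermined anticodon. That class was also lowest in control 1, at 112, 294 and 535 CPM in control 1, 2 and 3. Phe-AAA (10.0 CPM) and Asp-ATC (13.9 CPM) were lowest there too, so the pattern is not particular to lysine. The chromosome 5 copy (chr5.trna1995, chr5:90153653-90153725, plus strand), 12 edits away, had 38.3, 70.3 and 14.9 CPM in MMT, 56.6, 78.2 and 51.4 in MnCl2 and 11.7, 79.2 and 95.7 in control libraries. For both copies the 3 groups overlapped. The chromosome 13 copy averaged 549.9 ± 293 CPM in MMT, 700.1 ± 139 in MnCl2 and 580.1 ± 416 in control libraries (SD, n = 3 each). With the log2 total count as a covariate, the log2 fold change of the chromosome 13 copy in MnCl2 against control was 0.25, beside 0.29 without it.

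**Figure D3:**
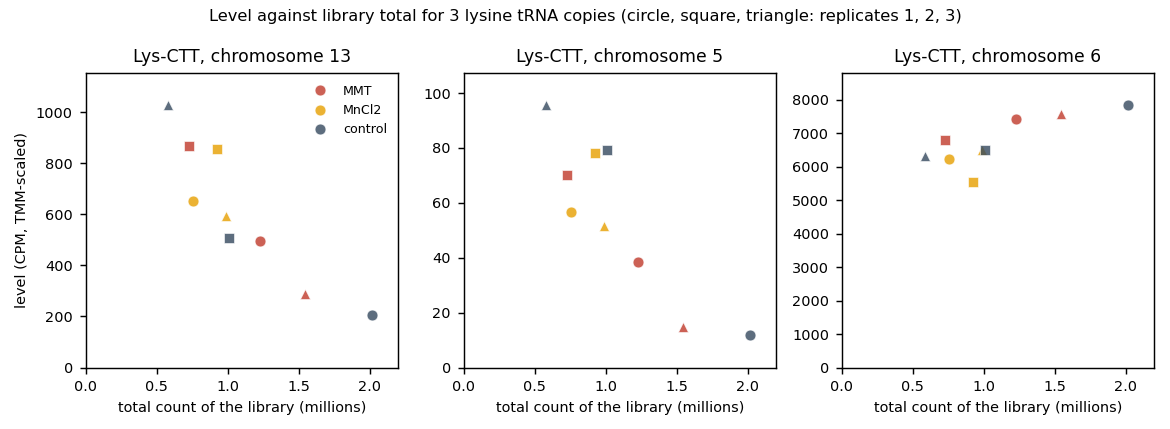
Level (CPM) of 3 Lys-CTT copies against the total count of each of the 9 libraries, with colour for the group and shape for the replicate. The chromosome 13 and chromosome 5 copies are lowest in the deepest library, at 206 and 11.7 CPM, while the chromosome 6 copy is there at its highest, 7846 CPM.

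Arginine copies showed a similar concentration on 1 or 2 sequences. The chromosome 4 Arg-CCT gene (chr4.trna1517, chr4:66087628-66087700, plus strand) took 66.8% of Arg-CCT counts, at 3044 CPM against a median copy of 224 CPM. The chromosome 10 Arg-CCG gene (chr10.trna5785, chr10:94966639-94966711, plus strand) took 66.9% of Arg-CCG counts, at 2067 CPM. It differs from each of the other two Arg-CCG genes by 15 substitutions. The chromosome 2 Arg-TCT gene (chr2.trna6815, chr2:243908087-243908171, minus strand) took 45.3%, at 981 CPM, and the chromosome 13 Arg-TCT gene, whose coordinates show no gap (chr13.trna2392, chr13:96411236-96411309, plus strand) took 21.9%. In mouse, 1 Arg-TCT gene is known as neuron-enriched, and the entries here do not pair a rat gene with it. The 5 Arg-TCG genes were more even, with a 1.92-fold range. In Arg-ACG the 3-copy and 2-copy sequences, which differ by C50T, took 47.8% and 46.9%.

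In MMT against control, all 10 His-GTG genes and 26 of 28 arginine genes had lower values in MMT, while 12 of 20 lysine genes had higher values. These counts include identical copies: the 10 His-GTG genes are 1 sequence. The 9-copy Lys-CTT sequence, summed, had a log2 fold change of -0.006 (SE 0.124), so the lysine count does not show a direction for lysine. With scaling on miRNAs alone, 55 of the 58 genes were lower, and the Lys-CTT sum turned to a log2 fold change of -0.07. That scaling also moved the median of all entries from 0.01 to -0.08, so the 55 cannot be read as particular to these genes. No gene passed the test. Of 1113 entries tested, edgeR (quasi-likelihood, Benjamini-Hochberg adjusted p under 0.05) and DESeq2 each called 0, or 0%, and all 58 genes were among those tested. Over the 58 genes, 44 log2 fold changes were negative and 14 positive, with a median of -0.10, beside 0.01 for all entries and 0.01 for the 350 other nuclear tRNA genes. Counting each of the 33 distinct sequences once, in a separate fit with its own scaling, 27 were negative and the median was -0.15. All entries of that fit had a median of -0.01. At an unadjusted edgeR p under 0.05, 3 genes were lower (1.98% of all entries) and 0 higher (0.18%), and DESeq2 gave 2 lower (1.8%) and 0 higher (0.27%). The MMT libraries lay wholly below the control libraries for 9 genes, beside 2.79% of all entries, and wholly above for 0, beside 1.8%. Leaving out control 1 changed the median to -0.05, with 39 of 58 negative, and leaving out MMT 2 left 36 negative. At an unadjusted p under 0.05, 0 were lower without MMT 2 or control 2 and 1 without MMT 1.

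The genes with the lowest p in this comparison were arginine genes of low or middle level. Arg-ACG on chromosome 2 (chr2.trna9817, chr2:124126944-124127016, minus strand), which differs from the 3-copy sequence by C49G, C50T and G65C, had 96.2, 100.4 and 114 CPM in MMT, against 121, 156 and 138 CPM in control libraries. These groups did not overlap, and the log2 fold change was -0.42 (SE 0.16, edgeR adjusted p = 1.00). Arg-TCG on chromosome 17 (chr17.trna1884, chr17:57945929-57946001, plus strand) had 348, 305 and 412 CPM in MMT, against 434, 538 and 427 CPM in control libraries, a log2 fold change of -0.39 (SE 0.15). Its identical copy at chr17:45704268-45704340 had a log2 fold change of -0.21 (SE 0.12), and the pair summed gave -0.32. Arg-TCT on chromosome 1 (chr1.trna11062, chr1:235509653-235509738, minus strand) had 182, 157 and 170.4 CPM in MMT, against 210.1, 216 and 207 CPM in control libraries. Its control libraries lay within 10 CPM of each other, and its log2 fold change was -0.31 (SE 0.13, edgeR adjusted p = 1.00). On the other side were 3 Lys-CTT copies of chromosome 1, with log2 fold changes of 0.15 (SE 0.15, trna9546), 0.10 (SE 0.15, trna9582) and 0.07 (SE 0.12, trna9032), which were within their errors of 0.

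Summed by anticodon, 6 of 8 were lower in MMT than in control and 2 higher, with a median log2 fold change of -0.12, beside 0.03 for the 755 entries of that table and -0.00 for the 42 other anticodon classes. None had an unadjusted edgeR p under 0.05, beside 1.32% of that table lower and 0.132% higher. Arg-TCT lay wholly lower in MMT, as did 1.99% of that table, and none of the 8 lay wholly higher, as did 2.38%. Arg-TCT summed to 2243, 2031 and 2278 CPM in MMT, against 2327, 2329.9 and 2380.0 CPM in control libraries, a log2 fold change of -0.10 (SE 0.13). Lys-TTT summed to 6285, 5248 and 6327 CPM in MMT, against 8290.4, 7347 and 5711 CPM in control libraries, a log2 fold change of -0.26 (SE 0.16, edgeR adjusted p = 1.00). Control 1 and 2 lay above all MMT libraries, and control 3 lay within them. Arg-TCG stood at 2234 ± 297 CPM in MMT and 2667 ± 250.1 CPM in control libraries (SD, n = 3 each), a log2 fold change of -0.26 (SE 0.15). Arg-ACG (-0.19, SE 0.17), His-GTG (-0.13, SE 0.13) and Arg-CCG (-0.11, SE 0.14) were within about 1 SE of 0, and so were Arg-CCT (0.04, SE 0.17) and Lys-CTT (0.03, SE 0.12). Lys-CTT held 26875, 25182 and 27169.7 CPM in MMT, against 26605, 25412 and 25578 CPM in control libraries, which overlap.

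**Figure D4:**
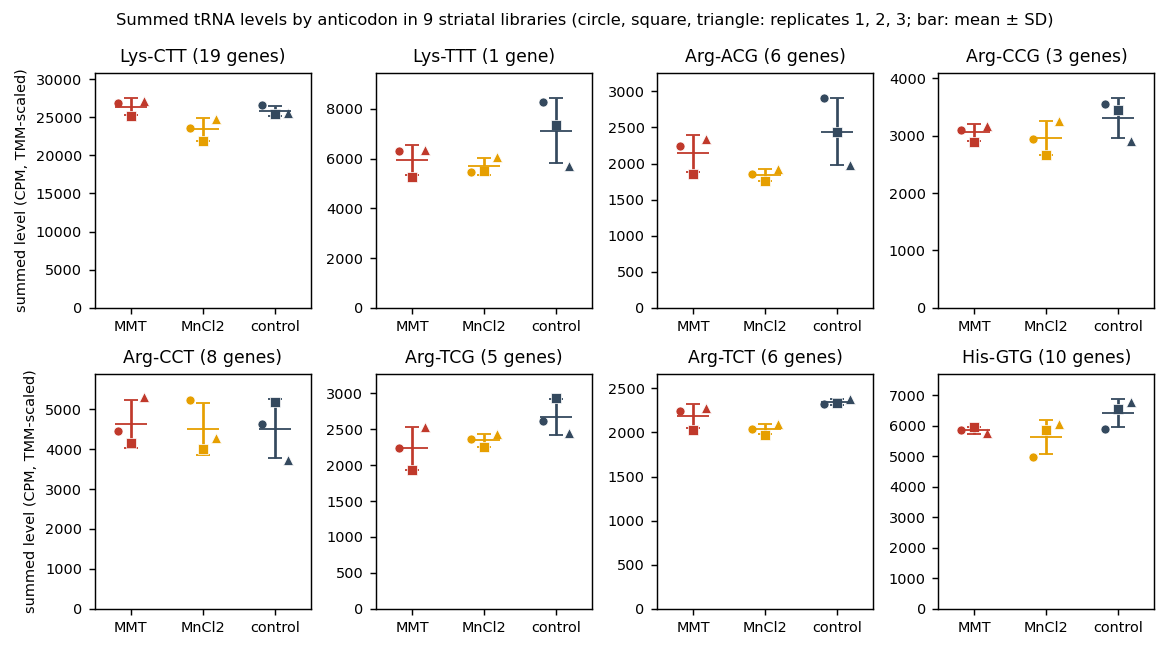
Summed level (CPM) of each of the 8 anticodons in the 3 libraries of MMT, MnCl2 and control, with the mean and SD as bars and a separate axis from 0 in each panel. The MnCl2 libraries lie wholly below the control libraries for Lys-CTT, Arg-ACG, Arg-TCG and Arg-TCT, and the MMT libraries do so for Arg-TCT.

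In MnCl2 against control, 54 of the 58 genes had lower values in MnCl2, with all 10 His-GTG, 27 of 28 arginine and 17 of 20 lysine genes among them. No gene passed the test: edgeR and DESeq2 each called 0 of 1113 entries (0%), and the lowest adjusted p among the 58 was 0.843 in edgeR. The median log2 fold change was -0.17, beside 0.06 for all entries, -0.06 for the 350 other nuclear tRNA genes and 0.23 for miRNAs. Over the 33 distinct sequences, in their separate fit, 30 were negative and the median was -0.19, beside 0.08 for all entries of that fit. Scaling on miRNAs alone moved the median of all entries to -0.14, and that of the 58 genes to -0.37. At an unadjusted edgeR p under 0.05, 7 genes were lower (3.14% of all entries) and 0 higher (1.44%), and DESeq2 gave 14 lower (4.76%) and 0 higher (1.44%). The MnCl2 libraries lay wholly below the control libraries for 19 genes, beside 4.94% of all entries, and wholly above for 0, beside 4.76%. Of these 19 genes, 9 were Lys-CTT copies, and some of these 9 share a sequence, so they are fewer than 9 measurements. The count at an unadjusted p under 0.05 rested on single libraries: it was 3 without control 1, 1 without control 2, 13 without control 3, 4 without MMT 1, 11 without MMT 2, 1 without MnCl2 1 and 2 without MnCl2 2. With any 1 library left out, 54 to 56 of 58 were negative, and chr4.trna1517, chr1.trna9546 and chr13.trna2707 were among those that changed sign between these fits.

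All 8 anticodon sums had lower values in MnCl2, with a median log2 fold change of -0.19, beside 0.16 for the 755 entries of that table and -0.07 for the 42 other anticodon classes. At an unadjusted edgeR p under 0.05, 1 sum was lower (1.46% of that table) and 0 were higher (1.85%). In 4 sums MnCl2 lay wholly below control (3.31% of that table), and in 0 wholly above (6.62%). Arginine tRNA with anticodon ACG had the lowest fold change of the 8. It summed to 1858, 1754 and 1919.5 CPM in MnCl2, against 2904, 2438 and 1977 CPM in control libraries. The groups did not overlap, although control 3 stood just above the highest MnCl2 library. Its log2 fold change was -0.40 (SE 0.17, edgeR adjusted p = 0.921). By copy, chr8.trna4881 (chr8:131759429-131759501, minus strand) had 438, 402 and 396 CPM in MnCl2, against 697, 625 and 424 CPM in control libraries, a log2 fold change of -0.50 (SE 0.18). The identical chr17.trna3669 (chr17:58926205-58926277, minus strand) gave -0.42 (SE 0.17). Of the 3-copy sequence, chr15.trna1072 (chr15:37051458-37051530, plus strand) had 250.0, 276 and 312 CPM in MnCl2, against 463, 341 and 354 CPM in control libraries. Its log2 fold change was -0.47 (SE 0.16, edgeR adjusted p = 0.843). The other two copies of that sequence gave -0.36 (SE 0.17) and -0.28 (SE 0.16), and the 3 copies summed gave -0.38 (SE 0.15).

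The other arginine sums were closer together. Arg-TCT summed to 2043, 1974 and 2096 CPM in MnCl2, against 2327, 2329.9 and 2380.0 CPM in control libraries, a log2 fold change of -0.20 (SE 0.13) without overlap. Most of it came from the chromosome 2 gene, at 852, 805 and 910.5 CPM in MnCl2, against 1083, 1030.1 and 1079 CPM in control libraries. For that gene the fold change was -0.31 on the log2 scale (SE 0.12, edgeR adjusted p = 0.843). Arg-TCG (-0.18, SE 0.15) and Arg-CCG (-0.16, SE 0.14) were lower in MnCl2 by about 1 SE. Arg-CCT overlapped widely. It summed to 5230.0, 4009 and 4279 CPM in MnCl2, against 4625, 5188 and 3729.5 CPM in control libraries, a log2 fold change of -0.00 (SE 0.17). Its chromosome 4 copy had 3850.4, 2633 and 2790.2 CPM in MnCl2, against 2951, 3475 and 2284 CPM in control libraries.

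Both lysine anticodons and histidine also had lower values in MnCl2. Lys-CTT summed to 23591, 21840.5 and 24794 CPM in MnCl2, against 26605, 25412 and 25578 CPM in control libraries. The groups did not overlap, and the log2 fold change was -0.14 (SE 0.12, edgeR adjusted p = 0.921). Lys-TTT summed to 5476, 5497 and 6073 CPM in MnCl2, against 8290.4, 7347 and 5711 CPM in control libraries, a log2 fold change of -0.32 (SE 0.16). His-GTG summed to 4988, 5851 and 6062 CPM in MnCl2, against 5911, 6536 and 6796 CPM in control libraries, a log2 fold change of -0.19 (SE 0.13). MnCl2 1 was the lowest of all 9 libraries for each of the 10 His-GTG genes, and MnCl2 2 the lowest for 15 of 19 Lys-CTT genes. The 10 His-GTG genes are 1 sequence, and many of the Lys-CTT genes share a sequence, so these are fewer measurements than genes. Of all entries tested, 11.7% were lowest in MnCl2 1 and 10.2% in MnCl2 2. MnCl2 1 is also the library with the highest vascular, immune and erythrocyte miRNA sums, and MnCl2 2 the one with the highest muscle miRNA sum. The exceptions in the other direction were the chromosome 13 Lys-CTT copy (log2 fold change 0.29, SE 0.54), the chromosome 4 Arg-CCT copy (0.09, SE 0.21), chr1.trna9546 of Lys-CTT (0.06, SE 0.16) and the chromosome 5 Lys-CTT copy (0.04, SE 0.67). The identical copy of chr1.trna9546, chr1.trna9582, had -0.17 (SE 0.15), and the pair summed gave -0.08 (SE 0.14), so that sequence taken once was lower.

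**Figure D5:**
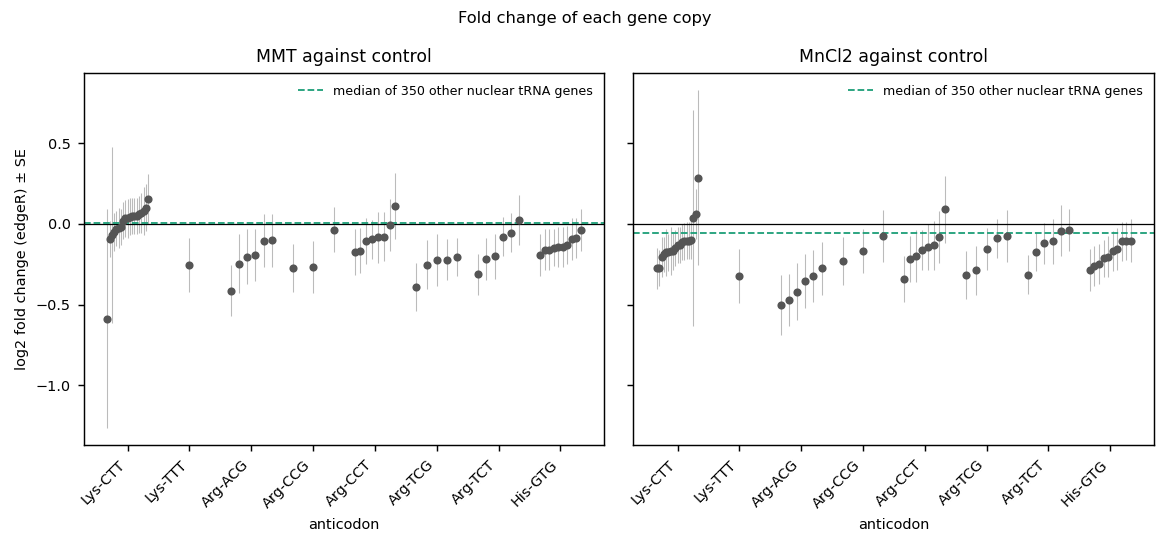
Log2 fold change (edgeR) ± SE of each of the 58 gene copies, by anticodon, for MMT against control (left) and MnCl2 against control (right), with the median of the 350 other nuclear tRNA genes as a dashed line. In MMT 12 of 19 Lys-CTT points sit above 0, and 26 of 28 arginine and all 10 histidine points below it, while in MnCl2 54 of 58 points sit below 0. Identical copies are drawn as separate points but are not separate measurements.

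MMT and MnCl2 share their control libraries, so the values of both against control are not independent, and the direct comparison was fitted as well. In MMT against MnCl2, 42 of 58 genes were higher in MMT and 16 lower, with a median log2 fold change of 0.09, beside -0.06 for all entries and 0.04 for the other nuclear tRNA genes. Over the 33 distinct sequences, in their separate fit, 21 were higher and 12 lower. Their median was 0.05, beside -0.11 for all entries of that fit. edgeR and DESeq2 each called 0 of 1113 entries (0%), and the lowest adjusted edgeR p among the 58 was 0.981. At an unadjusted edgeR p under 0.05, 2 genes were higher (1.35% of all entries) and 0 lower (0.629%), and DESeq2 gave 9 higher (2.61%) and 0 lower (0.449%). The MMT libraries lay wholly above the MnCl2 libraries for 9 genes, beside 4.31% of all entries, and wholly below for 1, beside 4.76%. Of these 9 genes, 8 were Lys-CTT copies, and some of these 8 share a sequence. The 9-copy sequence, to which some of them belong, overlapped when summed, at 13581 to 14948 CPM in MMT and 12154 to 13956 in MnCl2 libraries. With scaling on miRNAs alone, 51 of 58 were higher in MMT. That scaling also moved the median of all entries from -0.06 to 0.04, so the 51 cannot be read as particular to these genes. The median of the 58 genes was 0.22 without MMT 2, 0.17 without control 3 and 0.14 without control 2. It was 0.08 without MMT 3 or MnCl2 2, and 0.09 to 0.11 without any other library. The count of genes higher at an unadjusted p under 0.05 was 8 without MMT 2, 7 without control 3, 0 without MMT 3 or MnCl2 2, and 1 without MMT 1, control 1 or control 2.

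The genes with the lowest p here were a pair of identical lysine copies on chromosome 1. Compound, dose and vehicle all differ between MMT and MnCl2 and cannot be told apart. The copy chr1.trna9587 (chr1:275347435-275347507, minus strand) had 759, 719 and 819.9 CPM in MMT, against 627, 581 and 635 CPM in MnCl2 libraries. The groups did not overlap, and the log2 fold change was 0.32 (SE 0.11, edgeR adjusted p = 0.981). Its identical copy chr1.trna9032 (chr1:279075322-279075394, plus strand) had 792, 754 and 794 CPM in MMT, against 702, 551 and 684 CPM in MnCl2 libraries, a log2 fold change of 0.27 (SE 0.12). The pair summed to a log2 fold change of 0.30 (SE 0.11, edgeR adjusted p = 0.991). The Lys-CTT sum was 26875, 25182 and 27169.7 CPM in MMT, against 23591, 21840.5 and 24794 CPM in MnCl2 libraries. Of the 8 sums, it alone lay wholly higher (2.91% of the 755 entries), and none lay wholly lower (5.83%). None of the 8 had an unadjusted edgeR p under 0.05, beside 0.795% of entries higher and 0.795% lower. The Lys-CTT sum had a log2 fold change of 0.17 (SE 0.12, edgeR adjusted p = 0.998). Arg-TCT on chromosome 2 had 1054, 895 and 1123 CPM in MMT, against 852, 805 and 910.5 CPM in MnCl2 libraries, a log2 fold change of 0.26 (SE 0.12). Among genes lower in MMT, chr10.trna13305 of Arg-CCG (-0.19, SE 0.16), chr1.trna11062 (-0.19, SE 0.13) and chr10.trna11253 (-0.18, SE 0.13) of Arg-TCT had the lowest p.

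As shares of nuclear tRNA counts, which do not depend on the scaling of the libraries, lysine took 8.96% ± 0.513 in MMT, 8.48% ± 0.576 in MnCl2 and 9.22% ± 0.349 in control libraries (SD, n = 3 each). Arginine took 3.95% ± 0.418 in MMT, 3.99% ± 0.289 in MnCl2 and 4.26% ± 0.280 in control libraries. Histidine took 1.62% ± 0.0227 in MMT, 1.64% ± 0.169 in MnCl2 and 1.80% ± 0.184 in control libraries. Each mean was lower in both dosed groups than in control, and the groups overlapped. Exact two-sided permutation tests gave p = 0.5, 0.2 and 0.2 in MMT against control for lysine, arginine and histidine, and p = 0.2, 0.3 and 0.5 in MnCl2 against control. In MMT against MnCl2 they were 0.4, 0.9 and 0.9. With 3 libraries against 3, p cannot go below 0.1. Adjusted over the 3 amino acids, the values were 0.3 to 0.9. Within lysine, Lys-TTT took 18.4% ± 0.968 in MMT, 19.5% ± 0.646 in MnCl2 and 21.5% ± 2.87 in control libraries.

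Over the 9 libraries, the highest level of a gene lay in a control library more often than in a dosed one. It lay in MMT 1, 2 and 3 for 4, 1 and 8 of the 58 genes, in MnCl2 1, 2 and 3 for 1, 0 and 0, and in control 1, 2 and 3 for 14, 18 and 12. For the 350 other nuclear tRNA genes the counts were 20, 24 and 64 in MMT, 17, 42 and 22 in MnCl2, and 70, 34 and 57 in control libraries. The lowest level of the 58 lay in MnCl2 2 for 23 genes, in MnCl2 1 for 14 and in MMT 2 for 11. For the 350 others it lay in MnCl2 2 for 43, in MnCl2 1 for 61 and in MMT 2 for 27, and most often in control 1, for 93. These counts include identical copies, which share their reads.

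A further 31 entries, named as piRNAs by the authors, share 16 or more bases with the 58 genes and were counted apart from them, some of them listed under 1 name in more than 1 class. Of these, 22 share bases with lysine genes alone (30772 counts), 5 with histidine (4680), 3 with arginine (250) and 1 with both arginine and lysine (647). The most abundant with arginine alone, pir-63850, had 205 counts. The most abundant of all, pir-71087 with 11757 counts, matches bases 12 to 41 of the 9-copy Lys-CTT sequence and spans its anticodon. It matches the same bases of other Lys-CTT sequences, among them the chromosome 1 pair shown above.
pir-71087: tcagtcggtagagcatgagactCTTaatct
Its last base and its base at position 29 of the tRNA are those that set the chromosome 6 copy apart, so this entry does not occur in that copy. It stood at 1369, 1241 and 1361 CPM in MMT, 1001 to 1301 CPM in MnCl2 and 1195 to 1279 CPM in control libraries, with log2 fold changes of 0.10 (SE 0.14) in MMT and -0.21 (SE 0.14) in MnCl2 against control. It was not typical of the 12 entries with lysine alone that were tested. In MMT against control 10 of the 12 had lower values, with a median log2 fold change of -0.25, and 2 were lower at an unadjusted edgeR p under 0.05. In MnCl2 against control 11 of the 12 had lower values, with a median of -0.31, and 3 were lower at that p. For each entry lower at that p, control 3 lay within or below the dosed libraries of the comparison. The entry pir-64205, lower at that p in both, had 347, 242 and 122 CPM in control 1, 2 and 3. It had 135 to 137 CPM in MMT and 112 to 167 CPM in MnCl2 libraries. Most of these 12 overlap each other in sequence. Over all entries tested, 1.98% were lower at that p in MMT and 3.14% in MnCl2.

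All 5 histidine entries of this kind carry 1 or 2 bases before the first base of the deposited His-GTG sequence, shown here in capitals.
pir-64452: Ggccgtgatcgtatagtggttagtactct
pir-64451: Ggccgtgatcgtatagtggttagtactc
pir-64450: Ggccgtgatcgtatagtggttagtact
pir-79437: Tgccgtgatcgtatagtggttagtact
pir-62555: AGgccgtgatcgtatagtggttagtact
The extra base was G in 3 entries, which held 70.1% of the 4680 counts, T in 1 entry (16.3%) and AG in 1 entry (13.6%). The deposited His-GTG sequences begin without it. The highest of these, pir-64452, had 154, 137 and 149 CPM in MMT, 116 to 203 CPM in MnCl2 and 152 to 221 CPM in control libraries, with a log2 fold change of -0.40 (SE 0.21, edgeR adjusted p = 1.00) in MMT against control. Of the 31 entries, 19 passed the filter on low counts, and edgeR called 0 of them in any comparison.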

How the data were processed

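Small RNA of rat striatum was measured in 9 libraries. Per the labels' protocols, total RNA came from a TRIzol extraction, fragments of 15 to 45 nucleotides were cut from a gel, and libraries were made with a QIAseq miRNA kit. Per the submitters' processing notes, trimming was by Trimmomatic and the build was rn6. The sources used here do not give the aligner, how reads that fit several entries were placed, or whether strand and molecular identifiers were used. The authors deposited raw counts per entry, with each entry's sequence. Coordinates are those in the entry names and were not checked against a genome.

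The members and lists were chosen with earlier results of these data known. All 1759 entries went to filterByExpr, which left 1113 (615 miRNAs, 410 tRNA genes, 88 piRNAs). These were tested, two-sided, with the robust quasi-likelihood test of edgeR 4.0.16 (R 4.3.3), scaled by TMM, with the 9 libraries in 1 fit. The biological coefficient of variation was 0.2795, and p-values were adjusted over all entries tested (threshold 0.05). For anticodon sums, nuclear tRNA genes of 1 anticodon were summed (755 entries) and kept the scaling of single entries. Identical sequences were summed in a separate fit, with filter and scaling computed anew. Shares were compared by exact permutation over 20 arrangements. Genes named with tests are the most abundant copy of each anticodon and the 3 with the lowest p in each direction of each comparison, and other copies were named after their values were seen. Mitochondrial counterparts were not analysed here. Alternatives were DESeq2 1.42.0, RLE scaling, scaling on miRNAs alone, no filter or 10 CPM in 3 libraries, the total count as covariate, the replicate number as block, identical sequences summed, TMM on the summed table, other denominators of the shares, and each library left out. Scripts were tested on simulated data.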

Additional observations from a re-analysis of the deposited data

How the results depend on the processing

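No alternative changed a count of called genes or anticodon sums from 0. The exact tests of shares cannot go below 0.1 and say nothing of stability. Fold changes this close to 0 change sign easily, and 3 libraries a group and totals from 583045 counts limit what can be seen. Scaling on miRNAs alone turned log2 fold changes in MMT against control to -0.0225 (Lys-CTT chr6.trna6230), -0.0294 (Lys-CTT chr1.trna9032), -0.0651 (Arg-CCT sum) and -0.0670 (Lys-CTT sum), in MnCl2 against control to -0.123 (Arg-CCT chr4.trna1517) and -0.147 (Lys-CTT chr1.trna9546), and in MMT against MnCl2 to 0.0373 (Arg-TCG chr1.trna4154) and 0.0296 (Arg-TCG sum). Under the same scaling, 40 of 58 genes had an unadjusted edgeR p under 0.05 in MnCl2 against control, beside 7 with TMM. The share of all entries at that p was not counted under this scaling. It moved the median of all entries from 0.0551 to -0.141, so the rise to 40 cannot be read as particular to these genes. With no filter, values became -0.0350 (chr1.trna9546, MnCl2 against control), 0.0034 (chr1.trna4154) and 0.0005 (Arg-TCG sum, both MMT against MnCl2), and DESeq2 gave 0.0635 for the last. With the total count as covariate, the Arg-CCT sum was 0.0445 in MnCl2 against control, and MMT against MnCl2 gave -0.0529 (chr4.trna1517), -0.0328 (chr17.trna1908), -0.0191 (Arg-CCT sum) and -0.0329 (Lys-TTT sum). Summing identical sequences gave -0.0779 for chr1.trna9546 in MnCl2 against control, and TMM on the summed table gave -0.0041 for the Lys-CTT sum in MMT against control. As shares of all counts, MMT minus MnCl2 was 0.0207 for arginine and 0.0086 percentage points for histidine. The cause of these turns was not tested.

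With each library left out in turn, ranges in MMT against control were -0.123 to 0.0761 (chr10.trna5785), -0.0524 to 0.243 (chr4.trna1517), -0.0766 to 0.133 (Arg-CCT sum), -0.131 to 0.0496 (chr2.trna6815) and -0.479 to 0.0212 percentage points (lysine share). In MnCl2 against control they were -0.124 to 0.192 (chr4.trna1517), -0.189 to 0.0736 (Arg-CCT sum), -0.0751 to 0.144 (chr1.trna9546) and -0.124 to 0.934 (chr13.trna2707). In MMT against MnCl2 they were -0.0188 to 0.160 (Arg-CCG sum), -0.137 to 0.217 (chr4.trna1517), -0.0687 to 0.194 (Arg-CCT sum), -0.141 to 0.0787 (chr1.trna4154), -0.168 to 0.0982 (Arg-TCG sum), -0.0119 to 0.0924 (chr2.trna7567), -0.0187 to 0.127 (His-GTG sum), -0.258 to 0.159 (arginine share) and -0.115 to 0.048 percentage points (histidine share).

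The replicate numbers did not pair the libraries: deviations of same-numbered libraries correlated at 0.317, 0.333 and -0.666 in MMT against control, -0.0213, 0.0624 and -0.371 in MnCl2 against control, and -0.163, 0.493 and 0.256 in MMT against MnCl2. With the number as a block, 0 genes were called in each comparison.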
